A study of Caenorhabditis elegans with 2 samples.

Results

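The 276 nuclear tRNA genes on the X chromosome of Caenorhabditis elegans were described as sites of peaks for HLH-12-GFP. They are all genes of the tRNA biotype that the Ensembl annotation of the genome build WBcel235 (the same assembly as ce11) places on X, out of 612 in the nuclear genome (45.1%), while X makes up 17.7% of the nuclear length. The data are chromatin immunoprecipitation followed by sequencing (ChIP-seq) from whole worms, young adult hermaphrodites grown for 64 hours from synchronized starved first-stage larvae. The strain, OP538, carries the mutation unc-119(tm4063) on chromosome III and the transgene wgIs538, which expresses HLH-12 with a GFP and FLAG tag at its C terminus; it is 1 transgenic line, and chromatin was sonicated and precipitated with an antibody against GFP. The labels give 1 group of 2 biological replicates and no other condition, and no library from worms without the tagged protein was analysed here. For each gene, the highest signal of any peak whose summit lies within 200 bp of the gene was taken from the list of each replicate and from the relaxed list called on both replicates together (the pooled list). A further list, which the authors cut by the irreproducible discovery rate (IDR), which rates how well repeated peak lists agree in rank, held the pooled peaks of highest signal: the 230 nuclear IDR peaks were the 230 nuclear pooled peaks at or above a signal of 57.3.

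A tRNA gene is transcribed by RNA polymerase III from promoter elements inside the gene, the A box and the B box, which bind the factor TFIIIC, and transcription ends at a run of T after the gene. Identical copies of a tRNA gene are spread over the genome, and the isotype of a tRNA is the amino acid that it carries, set by its anticodon. The factor HLH-12, of the basic helix-loop-helix (bHLH) family, is known from the migration of the gonad's distal tip cells, and bHLH proteins bind E-boxes, CANNTG. No count below was tested against chance, because there is 1 group, and because genes that share a summit or a sequence are not independent.

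The sequences on which the account turns are printed from the RefSeq genome of WBcel235, each 5′ to 3′ on the gene's own strand, with capitals for the B box match GTTCNANNC. The match was searched on the gene's strand only and was present in 268 of the 276 X genes (97.1%), in 319 autosomal genes (94.9%) and in 1.34% of all windows of 72 bp on the plus strand of X. The first 5 genes carry some of the strongest peaks: an alanine tRNA with the anticodon TGC at chrX:6292278-6292349 (minus strand), the X chromosome's single alanine tRNA gene with the anticodon CGC at chrX:12890285-12890356 (minus), a valine tRNA at chrX:13307034-13307106 (plus), a leucine tRNA at chrX:11757831-11757914 (minus) and a phenylalanine tRNA at chrX:6593596-6593668 (plus).
T07H6.t2 (Ala TGC): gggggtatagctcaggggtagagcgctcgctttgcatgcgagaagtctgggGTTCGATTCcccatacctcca
K02A4.t2 (Ala CGC): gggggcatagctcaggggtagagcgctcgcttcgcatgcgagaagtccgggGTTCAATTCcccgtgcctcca
R04D3.t2 (Val TAC): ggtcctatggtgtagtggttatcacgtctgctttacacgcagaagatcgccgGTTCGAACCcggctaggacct
C40H5.t1 (Leu TAA): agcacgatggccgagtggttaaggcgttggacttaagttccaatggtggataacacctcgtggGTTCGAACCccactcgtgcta
T28B4.t1 (Phe GAA): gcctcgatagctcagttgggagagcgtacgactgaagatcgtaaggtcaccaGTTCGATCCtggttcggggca

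The next 6 sequences show near-copies that differed in their peaks. F47E1.t1 (chrX:9078254-9078325, minus) has the sequence shared by 15 nuclear glutamine tRNA genes, and F47E1.t2 (chrX:9074672-9074743, minus), H08J11.t2 (chrX:9091310-9091381, plus) and D1009.t1 (chrX:8925641-8925712, plus) are variants of it that occur once in the genome. C49F5.t1 (chrX:11993521-11993592, minus) has the common histidine tRNA sequence, and ZC449.t1 (chrX:5022817-5022888, minus) has the less common one.
F47E1.t1 (Gln TTG): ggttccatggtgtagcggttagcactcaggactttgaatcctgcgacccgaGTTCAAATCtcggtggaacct
F47E1.t2 (Gln TTG): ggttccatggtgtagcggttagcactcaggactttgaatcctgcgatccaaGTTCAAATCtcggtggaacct
H08J11.t2 (Gln TTG): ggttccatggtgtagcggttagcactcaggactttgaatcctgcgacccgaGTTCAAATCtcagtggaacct
D1009.t1 (Gln TTG): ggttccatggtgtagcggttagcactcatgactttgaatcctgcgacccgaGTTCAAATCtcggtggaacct
C49F5.t1 (His GTG): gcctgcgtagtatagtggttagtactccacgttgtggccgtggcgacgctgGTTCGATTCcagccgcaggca
ZC449.t1 (His GTG): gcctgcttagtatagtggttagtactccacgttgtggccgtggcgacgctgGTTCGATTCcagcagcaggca

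Most X tRNA genes had a summit in the replicate and pooled lists. The pooled list was deposited as peaks and background, the input for IDR, so a summit in it can be weak and is not by itself a confident peak. A summit lay within 200 bp of 213 genes (77.2%) in replicate 1 and of 183 genes (66.3%) in replicate 2, a mean of 71.7% ± 7.69 (SD, n = 2). Both replicates had a summit at 163 genes (59.1%), replicate 1 alone at 50 and replicate 2 alone at 20. In the pooled list 184 genes (66.7%) had a summit and 92 had none, and the IDR list had a summit at 80 genes (29.0%). No list had a summit at 43 genes. These counts are of genes rather than of peaks: the 184 genes rested on 167 pooled summits and the 80 genes on 73 IDR summits, since neighbouring genes can share a summit.

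Any place on X had a summit nearby far less often. Of all positions of a 72 bp window on X, the length of the median X tRNA gene, 10.6% had a summit within 200 bp in the list of replicate 1, 9.65% in that of replicate 2, 3.46% in the pooled list and 0.216% in the IDR list. Seen from the peaks, X tRNA genes lay within 200 bp of 226 of the 4164 X summits of replicate 1 (5.43%) and of 191 of the 3819 of replicate 2 (5.00%). They lay beside 183 of the 1333 pooled X summits (13.7%) and beside 74 of the 82 IDR summits on X (90.2%). The X tRNA genes were thus a small part of the replicate lists and nearly all of the strongest X peaks.

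The shares were higher on X than on the autosomes as a whole. Of the 336 autosomal tRNA genes, 64.6% had a summit in replicate 1 and 58.3% in replicate 2, so that the X share was higher by 12.6 and 7.97 percentage points (mean 10.3 ± 3.27, SD, n = 2). Both replicates had a summit at 47.3% of the autosomal genes, the pooled list at 55.7% and the IDR list at 15.8%, which put X higher by 11.01 percentage points in the pooled list and by 13.2 in the IDR list. Single autosomes came close to X or passed it. On chromosome II, 46 of 57 tRNA genes (80.7%) had a summit in replicate 1 and 37 (64.9%) in the pooled list, and on chromosome IV, 19 of 71 (26.8%) had an IDR summit. In replicate 2 the nearest was chromosome III, with 42 of 64 genes (65.6%).

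**Figure D1:**
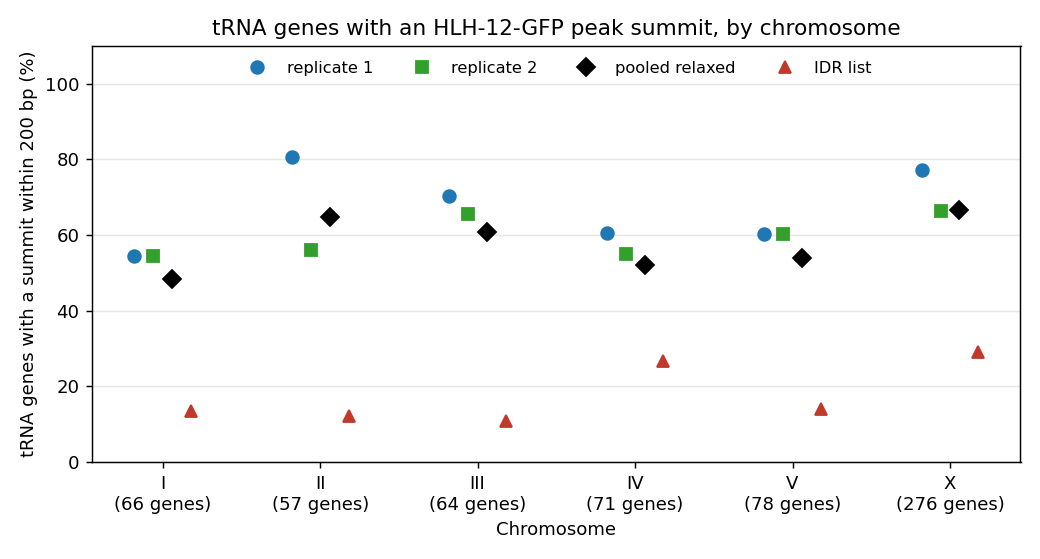
Share of tRNA genes with a peak summit within 200 bp (y axis, percent) on each chromosome (x axis, with the number of tRNA genes), for the replicate lists, the pooled list and the IDR list. X is at 77.2, 66.3, 66.7 and 29.0%; chromosome II is above X in replicate 1, and chromosome IV is close to X in the IDR list.

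The share of all peaks that fell on X also differed between replicates. Away from tRNA genes, X held 20.4% of the nuclear summits of replicate 1, 16.4% of those of replicate 2 and 18.3% of the pooled ones. This is a property of the lists that runs in the same direction as the larger X difference of replicate 1, and its part in that difference was not tested.

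Signals at X tRNA genes differed between genes and between replicates. Most were higher in replicate 1, whose whole list also had the higher median signal. The signal is the peak caller's own value, with no unit given. The lowest at any X tRNA gene was 12.5 in replicate 1 and 10.3 in replicate 2. These are near the lowest signals of the whole lists, 12.1 and 10.1 (26.3 in the pooled list), so values close to them lie at the floor. Among X genes with a summit, signals ran from 12.5 to 86.5 in replicate 1 (median 30.2), from 10.3 to 77.3 in replicate 2 (median 22.7) and from 26.3 to 153.3 in the pooled list (median 53.7). Divided by the replicates' summed signal, the pooled signal had a median of 0.999, so it is no average of the replicates. Autosomal medians over genes with a summit were 25.1, 18.9 and 45.2, and 2 autosomal genes against 12 X genes had a pooled signal of 100 or more.

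Over the 163 X genes with a summit in both replicates, replicate 1 had the higher signal at 134 and replicate 2 at 29, with a median ratio of 1.41. Autosomal genes with both had a median ratio of 1.35. The median signal of the whole list was 15.4 in replicate 1 (19792 peaks) and 13.0 in replicate 2 (22570 peaks). The direction of the offset was thus not particular to X tRNA genes, but after division by these medians their ratio was still 1.19. Among the X genes the ratio ran from 0.476 to 3.58, and no gene differed by more than 5 times. The SD between replicates had a median of 6.47, and the SD among the means of the X genes was 12.3. These are unlike measures: the first is a median of SDs of 2 values, and the second also holds differences between replicates. Their sizes are therefore not compared. Across these X genes, which share summits, sequences and libraries, Spearman's rho between replicates was 0.62, and it was 0.31 over the 159 autosomal genes with both. Of the 80 genes with an IDR summit, 78 had a summit in both replicates. The exceptions were F12D9.t6, with a signal of 41.3 in replicate 1 alone, and K02A4.t1, with 42.2 in replicate 2 alone.

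**Figure D2:**
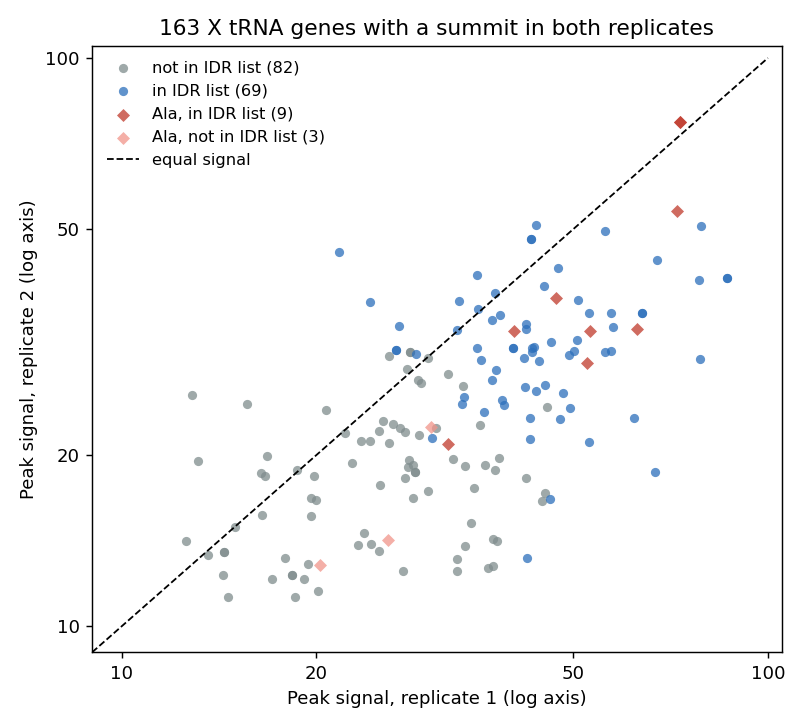
Highest peak signal within 200 bp in replicate 1 (x axis) and replicate 2 (y axis, both logarithmic) for the 163 X tRNA genes with a summit in both; diamonds are alanine tRNA genes, and colours mark genes with an IDR summit. Most points lie below the dashed line of equal signal (134 of 163), and the alanine genes of the F15G9 pair stand at the top right, at 73.2 and 77.3.

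The 12 X genes of highest pooled signal rested on 9 summits, 3 of which were shared by a pair of neighbours. The highest belonged to F15G9.t1 (Ala TGC, chrX:9743589-9743660) and F15G9.t2 (Ala AGC, chrX:9743747-9743818), which lie in an intron of him-4, the gene of the extracellular matrix protein hemicentin, on its strand. Their shared summit had 73.2 in replicate 1 and 77.3 in replicate 2 (75.2 ± 2.88, SD, n = 2), and 153.3 in the pooled list. It was the only summit among these 9 that was higher in replicate 2. R04D3.t2 (Val TAC), intergenic, had 78.7 and 50.6, and 126.5 pooled. T07H6.t2 (Ala TGC), intergenic, had 72.4 and 53.8, and 126.0 pooled.

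M02F4.t2 (Glu CTC, chrX:3035976-3036047) and M02F4.t1 (Gly TCC, chrX:3036164-3036235) are transcribed away from each other from a common spacer, and their summit lay in that spacer. It had 86.5 in replicate 1, the highest value of any X tRNA gene there, 40.9 in replicate 2 and 124.3 pooled. The next 3 were F41D9.t3 (Asn GTT), in an intron of the sulfate transporter family gene sulp-3 and on the opposite strand, W03G11.t1 (Lys CTT) and C40H5.t1 (Leu TAA). F41D9.t3 had 78.1 and 40.7 (115.4 pooled), W03G11.t1 had 67.3 and 44.1 (113.2 pooled), and C40H5.t1 had 78.6 and 29.6 (112.6 pooled). C40H5.t1 thus had the widest gap between replicates of these genes, an SD of 34.7 around a mean of 54.1.

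T28B4.t1 (Phe GAA), in an intron of fbxl-4 and on its strand, had 56.0 and 49.6 (106.7 pooled). It is the single phenylalanine gene on X with an IDR summit. The last pair, rte-5 (Glu CTC, chrX:13448677-13448748) and F02D10.t2 (Ser GCT, chrX:13448873-13448954), shared a summit with 63.9 and 35.5 (102.8 pooled). These 2 genes converge, and their summit lay downstream of both.

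Among isotypes, alanine had the highest share of genes with a summit in the pooled list, the IDR list and replicate 2, while in replicate 1 tryptophan (5 of 5) and threonine (13 of 14) had higher ones. All 13 X alanine genes had a pooled summit, on 12 distinct summits, and 9 had an IDR summit; replicate 1 had a summit at 12 of the 13 and replicate 2 at all 13. The exception in replicate 1 was T08A9.t1 (Ala AGC), with 33.5 in replicate 2 and 47.5 pooled. On the autosomes 14 of 21 alanine genes had a pooled summit and 4 an IDR summit. The pooled signals of the X genes ran from 35.4 at C56G3.t1, in an intron of npr-8, to the 153.3 of the F15G9 pair.

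The sequence of T07H6.t2, with the anticodon TGC, is present 3 times on X and 5 times on the autosomes. All 3 X copies had an IDR summit. Besides F15G9.t1 and T07H6.t2, these include T07H6.t1, in an intron of lev-9, which had 40.5 in replicate 1 and 33.1 in replicate 2 (79.0 pooled). Of the 5 identical autosomal copies, B0491.t2 had 33.9 and 13.4 (43.8 pooled) and Y38E10A.t1 had 26.7 and 16.0 (42.0 pooled). Y105C5A.t2 had 19.2 in replicate 2 alone, and the others, B0491.t1 and Y37A1B.t1, had no summit in any list. The value of F15G9.t1 is that of the summit it shares with F15G9.t2, which has another sequence. These copies were picked for description after their values were seen.

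K02A4.t2 (Ala CGC) occurs once in the genome and differs from T07H6.t2 at 6 of 72 positions, counted from the gene's 5′ end and given as the base in T07H6.t2, the position and the base in K02A4.t2: T6C, T33C, T48C, G56A, A64G and A66G. It had 62.8 and 33.3 (96.7 pooled). The pooled summit is shared with the neighbouring serine gene K02A4.t1, which has no identical copy either and had 42.2 in replicate 2 from another summit. The anticodon AGC was carried by 9 X alanine genes, 7 of which share a single sequence, and all 9 had a pooled summit and 5 an IDR summit. The lowest 3 of the 9 in the pooled list were C56G3.t1, F18G5.t1 (37.5) and T08A9.t1.

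Threonine tRNA genes followed, with a pooled summit at 13 of 14 (autosomes 11 of 20). R01H5.t1 (Thr TGT) was their highest, with 47.3 and 42.7 (89.9 pooled), and the gene without a pooled summit, K08H2.t1 (Thr AGT), had 10.3 in replicate 2 alone. Tryptophan genes had a pooled summit at 4 of 5. Here sup-7 (Trp CCA), a gene known for alleles that suppress amber stop codons, had 42.0 and 26.4 (69.2 pooled), whereas sup-28, with the identical sequence, had 21.5 in replicate 1 and no pooled summit. Both genes lie in introns on the host's strand, sup-7 in C03B1.2 and sup-28 in trk-1. Of the stretches of 36 bases within 200 bp, 88.6% around sup-7 and 74.1% around sup-28 occur once in the genome. The part of this in their values was not tested.

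The tRNA genes of the acidic amino acids were mostly in the pooled list, as were X tRNA genes as a whole (66.7%). Glutamic acid genes had a pooled summit at 17 of 23 (73.9%, autosomes 12 of 18), with all 8 of the anticodon TTC and 9 of the 15 of the anticodon CTC. F15A8.t2 (Glu CTC), with the sequence of M02F4.t2, had only 13.3 in replicate 1. Aspartic acid genes had a pooled summit at 9 of 12. F38G1.t2 (Asp GTC), in an intron of the fibroblast growth factor gene egl-17 and on the opposite strand, had 43.8 and 50.8 (91.5 pooled), and F22F1.t1, identical to it, had 15.4 in replicate 1 alone.

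For the basic amino acids, the pooled share of tRNA genes ran from 72.2% for lysine through 63.0% for arginine to 44.4% for histidine. Lysine genes had a pooled summit at 13 of 18, with W03G11.t1 as the highest; C25F6.t4 (Lys TTT) had 17.1 in replicate 1 alone. Arginine, the largest isotype on X with 27 genes, had a pooled summit at 17. The anticodon ACG accounted for 11 of these, from 13 genes, led by F12D9.t4, in an intron of stg-2, with 55.9 and 30.3 (84.1 pooled). Of the 6 genes of the anticodon TCG, 2 had a pooled summit, and F49E7.t3 had no summit in any list. Histidine genes had a pooled summit at 4 of 9.

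C49F5.t1 was the highest histidine gene, with 37.4 and 27.2 (66.6 pooled) and the only one with an IDR summit; this summit lay beyond the gene's 3′ end, 232 bp from its 5′ end. Its sequence is carried by 8 X genes, of which 4 had a pooled summit. ZC449.t1, the X gene with the other sequence (G7T and C65A against C49F5.t1), had 15.2 in replicate 1 alone. Of the 6 X copies in F28H6, a group with neighbouring tRNA genes, F28H6.t2 and F28H6.t7 shared a summit with 14.4 and 13.5 (27.6 pooled) and the others had none in the pooled list.

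Glutamine genes had the lowest share of any isotype in the pooled list, a summit at 6 of 15. They were not the lowest in the other lists, with 10 of 15 in replicate 1, 8 in replicate 2 and 2 in the IDR list. Serine (11 of 18) and arginine (17 of 27) were lower in replicate 1. Methionine (3 of 8), histidine (4 of 9), glycine (10 of 20) and tyrosine (4 of 8) were lower in replicate 2. In the IDR list methionine (0 of 8), isoleucine (1 of 13) and histidine (1 of 9) were lower. The highest glutamine gene was F47E1.t1 (Gln TTG), with 32.99 and 33.27 (65.1 pooled), alike in both replicates. Of the 9 X genes with its sequence, 5 had a pooled summit, between 30.01 and 65.1. None of the 3 variants printed above did: F47E1.t2 (C47T and G50A against F47E1.t1) and H08J11.t2 (G63A) had no summit in any list, and D1009.t1 (G29T) had 13.7 in replicate 1 alone. Their B box match is the same as that of F47E1.t1. They were chosen for printing after their values were seen.

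Of the remaining isotypes, asparagine genes had a pooled summit at 4 of 6, serine at 12 of 18, proline at 14 of 20, leucine at 11 of 17 and valine at 9 of 14. Isoleucine genes had one at 8 of 13, tyrosine at 6 of 8, glycine at 12 of 20 (autosomes 11 of 35) and cysteine at 4 of 7 (autosomes 6 of 6). Methionine and phenylalanine were lower, with 4 of 8 and 3 of 6, and no methionine gene had an IDR summit. The highest methionine gene, C03F11.t1, had 32.5 and 19.7 (51.3 pooled). Among the others not yet named, C02B4.t2 (Tyr), in an intron of the nuclear receptor gene nhr-17, had 50.9 and 37.5 (88.6 pooled). F42D1.t1 (Cys GCA) had 42.3 and 33.3 (75.5 pooled), and C02D4.t1 (Ile AAT), in an intron of the tyramine receptor gene ser-2, had 49.4 and 24.2 (70.9 pooled).

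In every isotype but alanine some X gene had no pooled summit, and the first of these by coordinate is described for each isotype. ZK154.t1 (Asn), C25F6.t1 (Met), C18A11.t1 (Pro AGG) and R11.t3 (Tyr) had no summit in any list. B0344.t2 (Ile) had 15.8, F08F1.t3 (Leu AAG) 13.0, F39B1.t1 (Val AAC) 20.5 and H35N09.t2 (Gln CTG) 14.3 in replicate 1 alone. ZK154.t4 (Gly) had 10.7, F22F1.t2 (Ser AGA) 14.9 and K01A12.t5 (Cys) 17.6 in replicate 2 alone. K05G3.t1 (Phe) had 14.6 and 11.3 in the replicates and no pooled summit, and it was 1 of 4 X genes with a summit in both replicates and none in the pooled list. The others were F22F1.t3 (Asp), with 14.97 and 14.94, R04E5.t5 (Cys), with 19.6 and 15.6, and T01B4.t2 (Val), with 20.01 and 16.7.

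**Figure D3:**
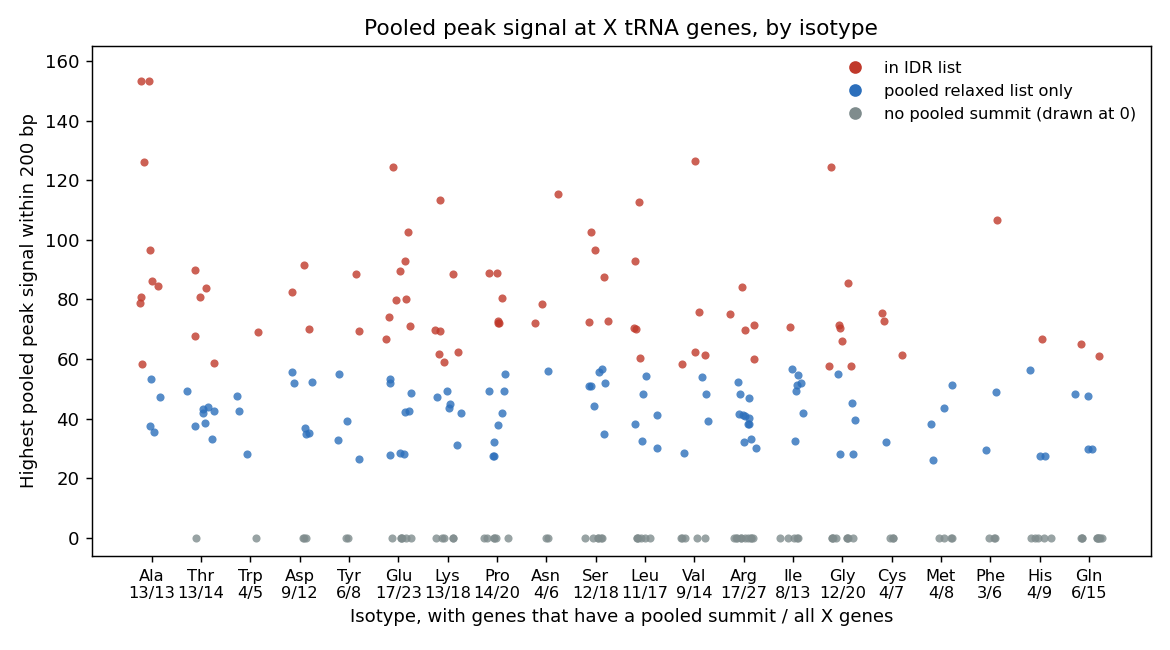
Highest pooled peak signal within 200 bp of each X tRNA gene (y axis), by isotype (x axis, ordered by the share of genes with a pooled summit, given as genes with a summit over all X genes); genes with no pooled summit are drawn at 0, and red points also had an IDR summit. Alanine has no point at 0 and the highest values, glutamine has 9 of 15 points at 0, and red and blue points meet between 56.8 and 57.8.

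Compared isotype by isotype, the share of genes with a summit was higher on X than on the autosomes for 17 of 20 isotypes in replicate 1 and for 12 of 20 in replicate 2. In the pooled list it was higher for 13, lower for 6 and the same for 1, and in the IDR list higher for 16 and lower for 4. The direction therefore varied by isotype, most in replicate 2.

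Identical copies were common, and members of a family of identical genes differed in their peaks. The 276 X genes had 106 sequences. Of these, 33 sequences had 2 or more X members (203 genes): in 26 of them some members had a pooled summit and others did not, in 7 every member had a pooled summit, and in none was every member without. The largest family, a proline tRNA (TGG) with 13 X and 11 autosomal copies, had a pooled summit at 10 X genes and an IDR summit at 3. Its highest members were the neighbours F46G11.t1 and F46G11.t2, which shared a summit with 42.9 and 48.0 (88.8 pooled). Its lowest with a summit were Y7A5A.t2 and Y7A5A.t3, which shared one with 18.3 and 12.3 (27.6 pooled), and R04D3.t3 and ZK678.t3, both in introns, had none in any list.

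The 7 families in which every X member had a pooled summit were 10 arginine genes (ACG), 8 glutamic acid genes (TTC), 7 and 3 alanine genes, 4 threonine genes (TGT), 2 arginine genes (TCT) and 2 valine genes (CAC). The arginine (ACG) sequence is found on X only, and its pooled signals ran from 30.3 to 84.1. The glutamic acid (TTC) sequence has 7 autosomal copies besides, of which 4 had a pooled summit, and its X signals ran from 27.9 to 92.8.

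Genes with no identical copy had a summit less often. Of the 57 X genes whose sequence occurs once in the nuclear genome, 56.1% had a summit in replicate 1, 43.9% in replicate 2 and 45.6% in the pooled list. For the 65 genes with 2 to 9 nuclear copies these shares were 78.5, 64.6 and 66.2%, and for the 154 genes with 10 or more copies 84.4, 75.3 and 74.7%. On the autosomes the shares in replicate 1 were 47.7, 63.2 and 74.2% and the pooled shares 40.7, 56.3 and 63.2%, but in replicate 2 they were 43.02, 65.5 and 62.6% and in the IDR list 9.30, 19.5 and 17.2%, so there the genes with 10 or more copies were not the highest in those lists. On X the difference was also seen among genes with no other tRNA gene within 400 bp: 17 of 37 such genes of a single copy (45.9%) and 113 of 145 with identical copies (77.9%) had a pooled summit. Many single-copy genes were near-copies: 30 of the 57 differed at 1 to 3 positions from a copied sequence of the same length, and 16 of these 30 had a pooled summit. So did 4 of the 9 that differed at 4 to 10 positions, and 6 of the 18 that differed at more than 10 or had no copied sequence of their length. Positions were compared without alignment and over all isotypes. An inserted or lost base can therefore place a near-copy among these 18.

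**Figure D4:**
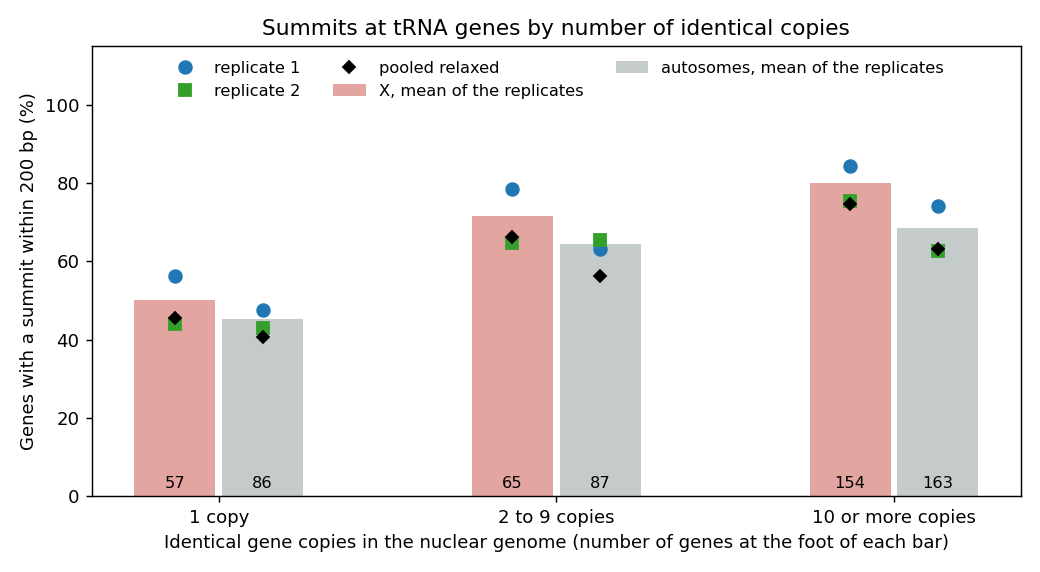
Share of tRNA genes with a summit within 200 bp (y axis, percent) by the number of identical gene copies in the nuclear genome (x axis), for X and the autosomes; bars are the mean of the 2 replicates, points the replicates and the pooled list, and the number of genes stands at the foot of each bar. On X the pooled share is 45.6% for genes of 1 copy, 66.2% for 2 to 9 copies and 74.7% for 10 or more.

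Comparing the same sequences on X and on the autosomes left the X share higher. For the 43 sequences present on both, 134 of 185 X genes (72.4%) and 138 of 223 autosomal genes (61.9%) had a pooled summit, and 34.1% and 17.9% an IDR summit. Sequence by sequence, the pooled share was higher on X for 21, lower for 13 and the same for 9. The IDR share was higher on X for 23, lower for 7 and the same for 13.

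The placing of reads that match several sites is not stated in the sources, and its part in the values of identical genes was not tested. As a measure of the sequence around each gene, the stretches of 36 bases within 200 bp of each gene that occur once in the genome were counted. Their share had a median of 88.4% around X genes and 88.6% around autosomal genes, and 88.6% and 87.9% around X genes with and without a pooled summit. Inside the genes themselves the median was 0% for genes with identical copies and 55.3% for those with none, and 222 X genes had no such stretch. Across the 276 X genes, which share libraries and sequences, Spearman's rho of the pooled signal (0 where there was no summit) was 0.09 with that share around the gene and 0.21 with the number of copies. It was −0.24 with the share inside the gene. In those 222 genes no stretch of 36 bases wholly inside the gene names its place in the genome.

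Along X the genes were close together. The median distance to the nearest other tRNA gene was 1161 bp on X and 9003 bp on the autosomes. Joined where gaps were at most 400 bp, the X genes formed 222 loci, of which 182 held 1 gene and 40 held more, and 161 loci had a pooled summit and 72 an IDR summit. Of the 182 isolated genes 71.4% had a pooled summit and 32.97% an IDR summit, compared with 57.4% and 21.3% of the 94 genes in loci of 2 or more. In the loci of 3 or more, 16 of 32 genes had a pooled summit and 3 an IDR summit. A summit in such a locus was counted for each gene within 200 bp of it.

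The largest loci held 5 genes each. In the H08J11 locus (chrX:9090627-9091628), in ajm-1, the gene of an apical junction protein, all 5 are glutamine genes: 3 had a pooled summit, on 2 summits. H08J11.t3 had 39.1 and 24.5 (61.2 pooled), an IDR summit, and H08J11.t5 and H08J11.t1 shared a pooled summit of 30.01. In the K01A12 locus (chrX:8623603-8624532), in K01A12.3, 2 genes shared a pooled summit and none had an IDR summit. None of the 3 genes of the F49E7 locus (chrX:1089173-1089910) had a pooled summit.

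In bins of 1 Mb the densest was 8 to 9 Mb, with 51 tRNA genes, of which 27 had a pooled summit and 9 an IDR summit. The bin from 16 to 17 Mb had 32 genes (17 and 6) and that from 13 to 14 Mb had 30 (22 and 9). All 11 genes from 10 to 11 Mb and all 9 from 3 to 4 Mb had a pooled summit, and the 2 genes beyond 17 Mb, in the last bin, had none. Pooled peaks of any kind numbered 75 from 8 to 9 Mb and 78 from 3 to 4 Mb. Genes with a summit were found in every bin but the last.

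The shares were near each other for genes inside and outside protein-coding genes. Of the 180 intergenic genes 65.6% had a pooled summit and 51 an IDR summit, and of the 95 in introns 68.4% and 28. Within introns, 33 of 50 genes on the host's strand and 32 of 45 on the opposite strand had a pooled summit. The IDR list was further apart, with a summit at 12 (24.0%) and 16 (35.6%) of these genes (autosomes 17.3% and 19.5%). The single gene in an exon, C28G1.t1 (Glu TTC) in C28G1.2, had a pooled signal of 92.8. Among hosts of several tRNA genes, all 3 in unc-58, the gene of a potassium channel, had a pooled summit, both in cat-1, the vesicular monoamine transporter gene, and none of the 3 in srxa-9.

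The position of the summit differed between lists and was described first at isolated genes, where it can be tied to 1 gene. At the 130 isolated X genes with a pooled summit, its median position was 46 bp downstream of the gene's 5′ end, and 72 summits (55.4%) lay inside the gene, which fills 15.7% of the stretch in which a summit was counted. In the replicate lists 45.6% and 44.6% lay inside, so most replicate summits lay beside the gene. Over all X genes with a summit, isolated or not, the shares inside were 46.2% in the pooled list, 38.97% in replicate 1 and 35.5% in replicate 2. The autosomal shares were 47.3% in the pooled list and 41.2% and 39.9% in the replicates. The summits of the replicates were not at the same base: at the 122 isolated genes with both, they lay a median of 52.5 bp apart, and at 58 genes within 50 bp. A position inside the gene is therefore not resolved to an A box or a B box.

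**Figure D5:**
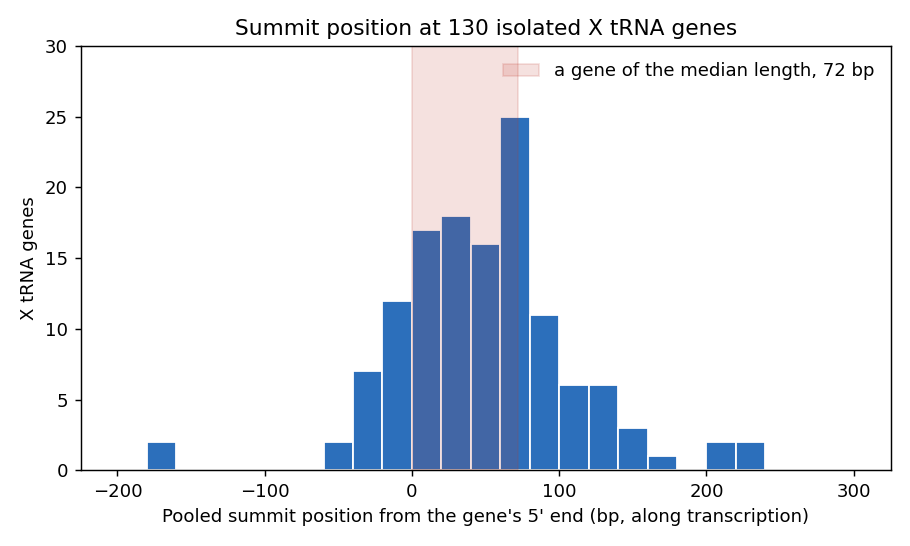
Number of isolated X tRNA genes (y axis) by the position of their pooled summit from the gene's 5′ end (x axis, bp along the direction of transcription, bins of 20 bp); the shaded band is a gene of the median length, 72 bp. The 130 summits have a median position of 46 bp, and 72 of them lie inside the gene.

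Few genes had their nearest pooled summit close to the limit of 200 bp, but their number did not fall at that limit. The nearest pooled summit lay in the gene at 88 X genes, within 50 bp outside it at 60, at 51 to 100 bp at 21, at 101 to 150 bp at 9 and at 151 to 200 bp at 6. At 201 to 250 bp there were 9 further genes and beyond 500 bp 71. Just inside were F28H6.t7 (His, 198 bp, signal 27.6) and R04E5.t1 (Gly, 183 bp, 28.3), and just outside ZK154.t5 (Asn, 201 bp, 72.3) and F54F7.t1 (Gln, 214 bp, 47.7). Genes with none within 200 bp had their nearest summit at a median of 1757 bp.

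The strict B box and A box cores searched in tRNA genes did not separate genes with and without a pooled summit by much. The stricter B box core GTTCGANNC, searched on the gene's strand, was present in 200 X genes (72.5%), in 71.7% of the autosomal genes and in 0.249% of the 72 bp windows of X. A pooled summit was present at 66.0% of the X genes with this core and at 68.4% of those without. The A box core TGGCNNAG, searched the same way, was in 42 X genes (15.2%), in 19.6% of the autosomal genes and in 0.801% of the windows. A pooled summit was present at 61.9% of these X genes and at 67.5% of the others. This core is 1 fixed spelling, and a gene without it can carry the A box in another spelling. The split therefore does not compare genes with and without an A box. A run of 4 or more T began within 20 bp of the 3′ end in 273 of the 276 genes. A pooled summit was present at 183 of these and at 1 of the 3 without such a run. The 8 X genes without the looser match GTTCNANNC, 3 of them methionine genes, had a pooled summit at 4.

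The E-box CANNTG, which reads alike on both strands in its fixed letters, was in 66 X genes (23.9%), in 24.7% of the autosomal genes and in 25.01% of the windows of X, so it was as frequent in tRNA genes as elsewhere on X. A pooled summit was present at 69.7% of the X genes with an E-box and at 65.7% of those without. CACATG, a form of the E-box searched on both strands, was in 20 X genes (7.25%; autosomes 6.85%, windows 2.50%), all 12 aspartic acid genes and 8 of the 23 glutamic acid genes. Of these 20, 17 had a pooled summit and 6 an IDR summit, against 167 and 74 of the other 256. The 20 genes fall into few sequences, so this is a comparison of a few families. Near the IDR summits on X, CACATG occurred within 50 bp of 11 of 82 (13.4%), inside a tRNA gene at 4 of them. Over all nuclear IDR summits, X included, it occurred near 23 of 230 (10.0%). Its share in any stretch of that length was not counted.

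Genes whose products make or use tRNA were examined at their own promoters, here the 1000 bp before and the 200 bp after the 5′ end, a stretch that held a pooled summit at 9.03% of all 19973 protein-coding genes. Of 32 aminoacyl-tRNA synthetase genes, whose enzymes load tRNA with amino acids, 2 had a pooled summit: lars-1 (leucine), with 20.1 in replicate 2 alone and 29.3 pooled, and vars-1 (valine), with 14.9 and 14.4 (30.5 pooled). Of 16 matched genes of RNA polymerase III and its factors, 1 had a summit, rpac-19, a subunit shared by RNA polymerases I and III, with 23.7 and 30.7 (51.4 pooled). All 3 lie on autosomes with no tRNA gene at the summit, and the shares are near the background or below it.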

How the data were processed

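The samples were 2 biological replicates of HLH-12-GFP ChIP-seq, and the files were peak lists for ce11. Each peak's signal is a deposited value of the peak caller, with no unit given, and the authors' lists also hold a −log10 q value; the p-value column held no values. The aligner, the caller, the scaling for depth and the handling of reads with several matches are not stated by the labels or file headers (not given in the sources used here), and read depth is unknown, so no counting interval is given. Lists deposited for ce10 were not used. Every nuclear ce11 peak lay within the WBcel235 chromosome of the same name.

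tRNA genes came from Ensembl release 115, and isotypes from RefSeq, whose 612 nuclear tRNA features had the same coordinates; 273 X genes had an isotype. Anticodons were read by a script from the sequence (256 X genes). Summits were the peak start plus the deposited offset. Calculations used Python 3.11.15 and numpy 2.4.6, and figures matplotlib 3.10.9; summit assignment was tested on simulated data. The IDR list was used as deposited. Of the gene lists, vars-2, wars-2, rpc-3, rpc-6, rpc-9 and bdp-1 did not match by symbol.

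Genes named were the 12 of highest pooled signal, the highest member of each isotype and its first member by coordinate without a pooled summit, members of the most copied family, members whose replicates differed by more than 5 times (none), listed genes with a promoter summit, and genes of counts of 5 or fewer. The members, lists and rules were chosen with earlier results of these data known. Others are named where the text says that they were chosen after their values were seen, or as examples for hosts, loci and distances, chosen in the same way. No p-value was computed. Alternatives were other distances, peak overlap, identical genes or loci counted once, each replicate alone, stricter lists and signals divided by the list median; 3 restrictions of the X and autosomal genes were added after seeing the data.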

Additional observations from a re-analysis of the deposited data

How the results depend on the processing

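Of 52 alternative values, 40 stayed within the spread between replicates or within 1.5 times the reported count, 12 moved further and 0 changed direction; all 23 differences between X and autosomes were above 0. The pooled difference of 11.01 percentage points was 15.05 with summits within 500 bp, 7.64 with identical sequences counted once, 14.7 with loci counted once, and 9.28 to 16.0 in a single replicate cut to the size of the pooled list. The IDR difference of 13.2 was 16.2 with loci counted once, 13.3 to 17.3 in a single replicate cut to the size of the IDR list, and, added after seeing the data, 16.5 for genes with no tRNA gene within 400 bp and 16.1 for sequences on both X and autosomes. With identical sequences counted once, the counts were 70 in the pooled list, 40 in the IDR list and 63 in both replicates, since fewer units are counted. The stronger part of the IDR list left 48 X genes. In a single replicate the pooled count was 148 without replicate 1 and 183 without replicate 2, and the IDR count 67 and 88. The replicate ratio of 1.41 was 1.19 after division by each list's median. Read depth is unknown, so whether genes without a summit lacked one for want of reads was not tested. With 2 replicates an SD rests on a single difference. No paired analysis was possible because there is 1 group.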
